A study of Mus musculus with 12 samples.

Results

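Transcripts of 35 mouse complement genes, covering components, receptors and regulators, were followed in left ventricle tissue after myocardial infarction with and without an Irx3 vector. The genes were chosen by symbol from a list of pathway members, and all 35 were found among the 56748 genes of the count table. Polyadenylated RNA was sequenced from 12 wild-type C57BL/6J mice in 3 groups of 4 libraries, and tissue was taken 14 days after surgery. In the Irx3 MI group mice received an AAV9 vector for Irx3, a homeobox transcription factor gene, through the tail vein and then infarction by ligation of the left anterior descending coronary artery. In the control MI group an AAV9 control vector was followed by the same infarction, and in the sham group the control vector was followed by sham surgery. No group had the Irx3 vector without infarction, so its effect without infarction was not measured, and every group carried a vector. The promoter that drives Irx3 in the vector is not given in the sources used here.

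Complement is a cascade of secreted proteases and binding proteins that tags dying cells and microbes for uptake and calls in leukocytes. It starts from the classical pathway (C1q, C1r, C1s), the lectin pathway (mannose-binding lectin, ficolins, MASP proteases) or the alternative pathway (factors B and D, properdin), which meet at C3 and can end in the membrane attack complex of C5 to C9. Cells protect themselves with membrane and plasma inhibitors, and in infarcted heart muscle the cascade is known as a part of the inflammatory response that clears dead tissue. The liver makes most plasma complement, while macrophages are a main source of C1q and fibroblasts can make C1r, C1s, C3 and C4.

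Libraries held 13352604 to 19236721 counts, and the labels give 1 batch for all. Irx3 itself had 314, 513, 285 and 462 CPM (counts scaled to a common library size with TMM factors) in Irx3 MI hearts. It had 30.5, 27.3, 16.8 and 17.6 CPM in control MI hearts and 20.5 to 25.9 CPM in sham hearts. Left ventricle is the labelled tissue, while the labelled cell type is cardiomyocytes. The 9 cardiomyocyte markers summed to 28525 to 50703 CPM in Irx3 MI, 29506 to 62207 CPM in control MI and 86885 to 101503 CPM in sham hearts, and macrophage, fibroblast, T cell and B cell markers were present as well, so the libraries were read as whole tissue. In whole tissue, fewer cells of a type and less RNA per cell cannot be told apart. The share of mitochondrially encoded counts was 10.4% to 19.0% in Irx3 MI, 0.926% to 5.64% in control MI and 4.50% to 8.22% in sham hearts. Control MI replicate 4, with the lowest mitochondrial share, held the highest value of its group for 20 of the 30 complement genes tested, and Irx3 MI replicate 4, the smallest library with the highest mitochondrial share, held the lowest for 21 of 30. The part of tissue sampling or RNA quality in the results was not tested.

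The 250 bases before the annotated start are shown for C1qb and C1qc, which moved together, for C3, the component with the most reads, and for C3ar1, which went the other way between the infarcted groups. Capitals mark the core letters of the macrophage factor PU.1 (GAGGAA, or TTCCTC on the other strand) in both C1q windows and a C/EBP motif (TTGCNNAA) in the C3 window. Sequences are from RefSeq on GRCm38.p6, while the counts were made on GRCm39, so the coordinates hold for GRCm38.p6 only; all 4 genes lie on the minus strand and are written 5′ to 3′.
C1qb (chr4:136886201-136886450): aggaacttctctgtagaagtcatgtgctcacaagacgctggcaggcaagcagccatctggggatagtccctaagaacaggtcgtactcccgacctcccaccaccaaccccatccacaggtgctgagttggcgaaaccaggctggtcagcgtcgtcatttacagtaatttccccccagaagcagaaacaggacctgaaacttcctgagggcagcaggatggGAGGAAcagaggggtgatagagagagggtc
C1qc (chr4:136892915-136893164): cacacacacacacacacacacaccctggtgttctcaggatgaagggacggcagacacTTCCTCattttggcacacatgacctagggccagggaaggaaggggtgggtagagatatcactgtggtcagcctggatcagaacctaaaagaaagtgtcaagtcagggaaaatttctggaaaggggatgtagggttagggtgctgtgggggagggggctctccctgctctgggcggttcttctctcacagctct
C3 (chr17:57228137-57228386): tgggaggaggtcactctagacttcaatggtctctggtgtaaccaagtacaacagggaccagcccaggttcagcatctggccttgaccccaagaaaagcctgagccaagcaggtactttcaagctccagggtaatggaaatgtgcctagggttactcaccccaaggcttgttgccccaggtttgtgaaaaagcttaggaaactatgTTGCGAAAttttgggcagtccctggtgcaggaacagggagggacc
C3ar1 (chr6:122856158-122856407): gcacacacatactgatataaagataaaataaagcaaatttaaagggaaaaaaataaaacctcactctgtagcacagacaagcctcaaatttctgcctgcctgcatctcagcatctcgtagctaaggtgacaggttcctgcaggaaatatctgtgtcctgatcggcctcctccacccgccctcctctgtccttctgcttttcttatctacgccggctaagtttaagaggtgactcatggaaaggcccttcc

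The PU.1 core lay 30 to 25 bases before the start in C1qb and 193 to 188 bases before it in C1qc, and the C/EBP match lay 45 to 38 bases before the start in C3. Windows were found for 26 of the 35 genes, 29 windows in all, and motifs were searched on both strands. GAGGAA stood in 5 of 29 windows, against 23.3% of all 32851 windows of this length, and TTGCNNAA in 5 of 29, against 9.56%. The interferon motif, GAAA and GAAA with any 2 bases between, stood in 1 of 29 (2.98% of all windows) and the NF-kB motif, GGGAA and CC with any 3 bases between, in 1 (4.94%). The window of C3ar1 held none of these letters. A match describes the letters of the window and shows no binding.

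The question of the first comparison was how complement transcripts stood in infarcted hearts against sham hearts under the same control vector. Of the 30 genes that passed the filter on low counts, 21 were higher in control MI than in sham hearts, 2 were lower and 7 were not called, by edgeR's quasi-likelihood test at an adjusted p under 0.05. Among all 15742 genes tested, 26.3% were called higher and 22.4% lower. The median log2 fold change of the 30 was 1.76, against 0.0069 over all genes tested. In this fit genes called higher came from every arm of the cascade. They were 5 of 6 genes of the classical start and Masp1 of the lectin start. Of the C3, C4 and alternative pathway group 6 of 7 were called higher. The others were C6 and C7 of the terminal pathway, all 3 receptors tested and 4 of 9 regulators. With a GC offset in the fit, described further on, again 21 were higher and 2 lower, against 30% and 23.1% of all genes. Cfb, Cfd, Cfi and C6 were at 0.314 CPM or below in every sham library, and C2 and C4a at 1.09 CPM or below. They passed the filter through infarcted libraries, so their place among the genes tested depended on the groups where they were high. For Cfd and C6 these had to include Irx3 MI libraries. In a fit of control MI and sham hearts alone 28 members were tested, and neither Cfd nor C6 was called. C7 was not called in that fit either (edgeR adjusted p = 0.0594), so it held no terminal pathway gene called higher.

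**Figure D1:**
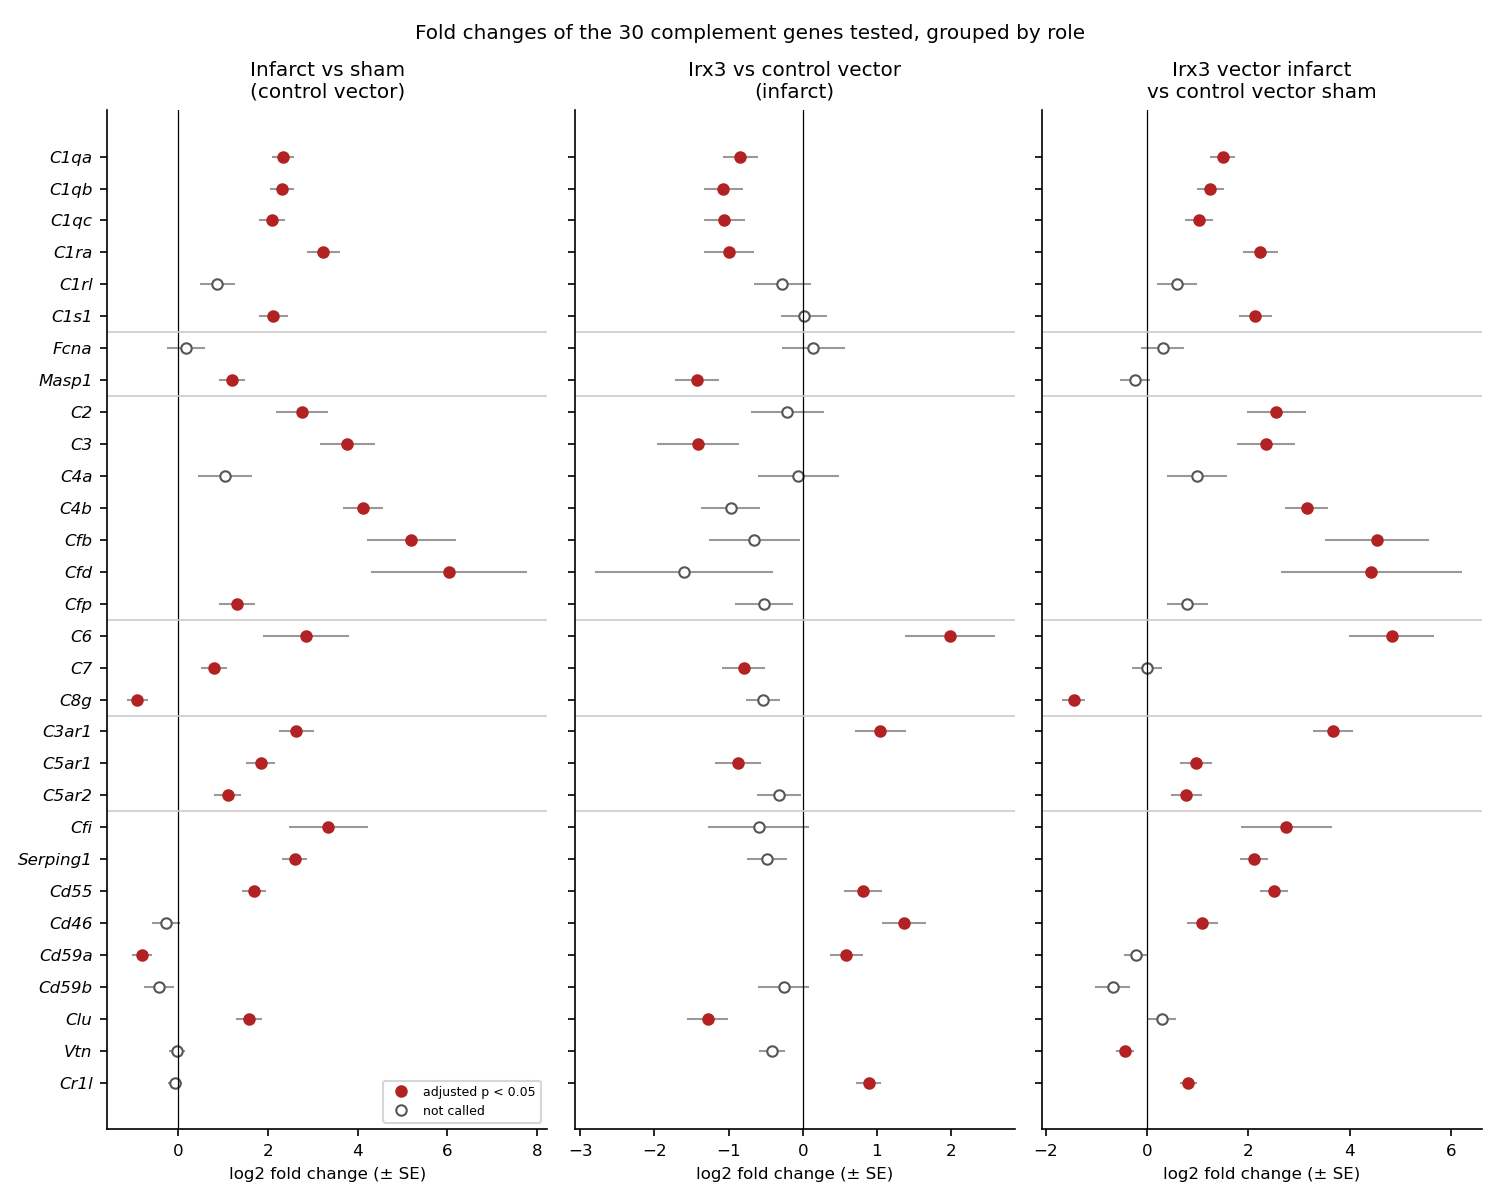
Log2 fold change with its standard error (x axis, scales differ between panels) for the 30 complement genes tested (y axis, grouped by role from classical start at the top to regulators at the bottom) in 3 comparisons; filled points passed an adjusted p under 0.05. Most points lie right of 0 in both comparisons with sham hearts, while the middle panel has 6 filled points to the right and 9 to the left.

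C1qa, C1qb and C1qc encode the 3 chains of C1q, which binds antibody and dying cells. C1qa had 207, 179.8, 241 and 378 CPM in control MI hearts, against 53.6, 53.8, 40.7 and 50.8 CPM in sham hearts. All 4 infarcted hearts lay above all 4 sham hearts, with replicate 4 the highest. The rise was 2.34 ± 0.25 on the log2 scale (standard error here and below; edgeR adjusted p = 2.92e-05). C1qb and C1qc rose by 2.31 ± 0.28 and 2.08 ± 0.29 (edgeR adjusted p = 5.13e-05 and 0.000124), also with no overlap of the groups. C1ra, the protease that C1q activates, had 87.0, 78.3, 121 and 234 CPM in control MI hearts, against 12.6, 16.1, 13.3 and 13.2 CPM in sham hearts, a change of 3.23 ± 0.36 (edgeR adjusted p = 3.92e-05). C1s1, the protease next in line, had 67.6, 71.5, 98.0 and 175 CPM, against 19.3 to 26.8 CPM in sham hearts, a change of 2.12 ± 0.33 (edgeR adjusted p = 0.000241). The groups did not overlap for either protease. C1rl, a C1r-like protease, was low in control MI (1.77 to 6.72 CPM) and in sham hearts (1.40 to 2.20 CPM) and was not called (0.87 ± 0.40, edgeR adjusted p = 0.0839).

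**Figure D2:**
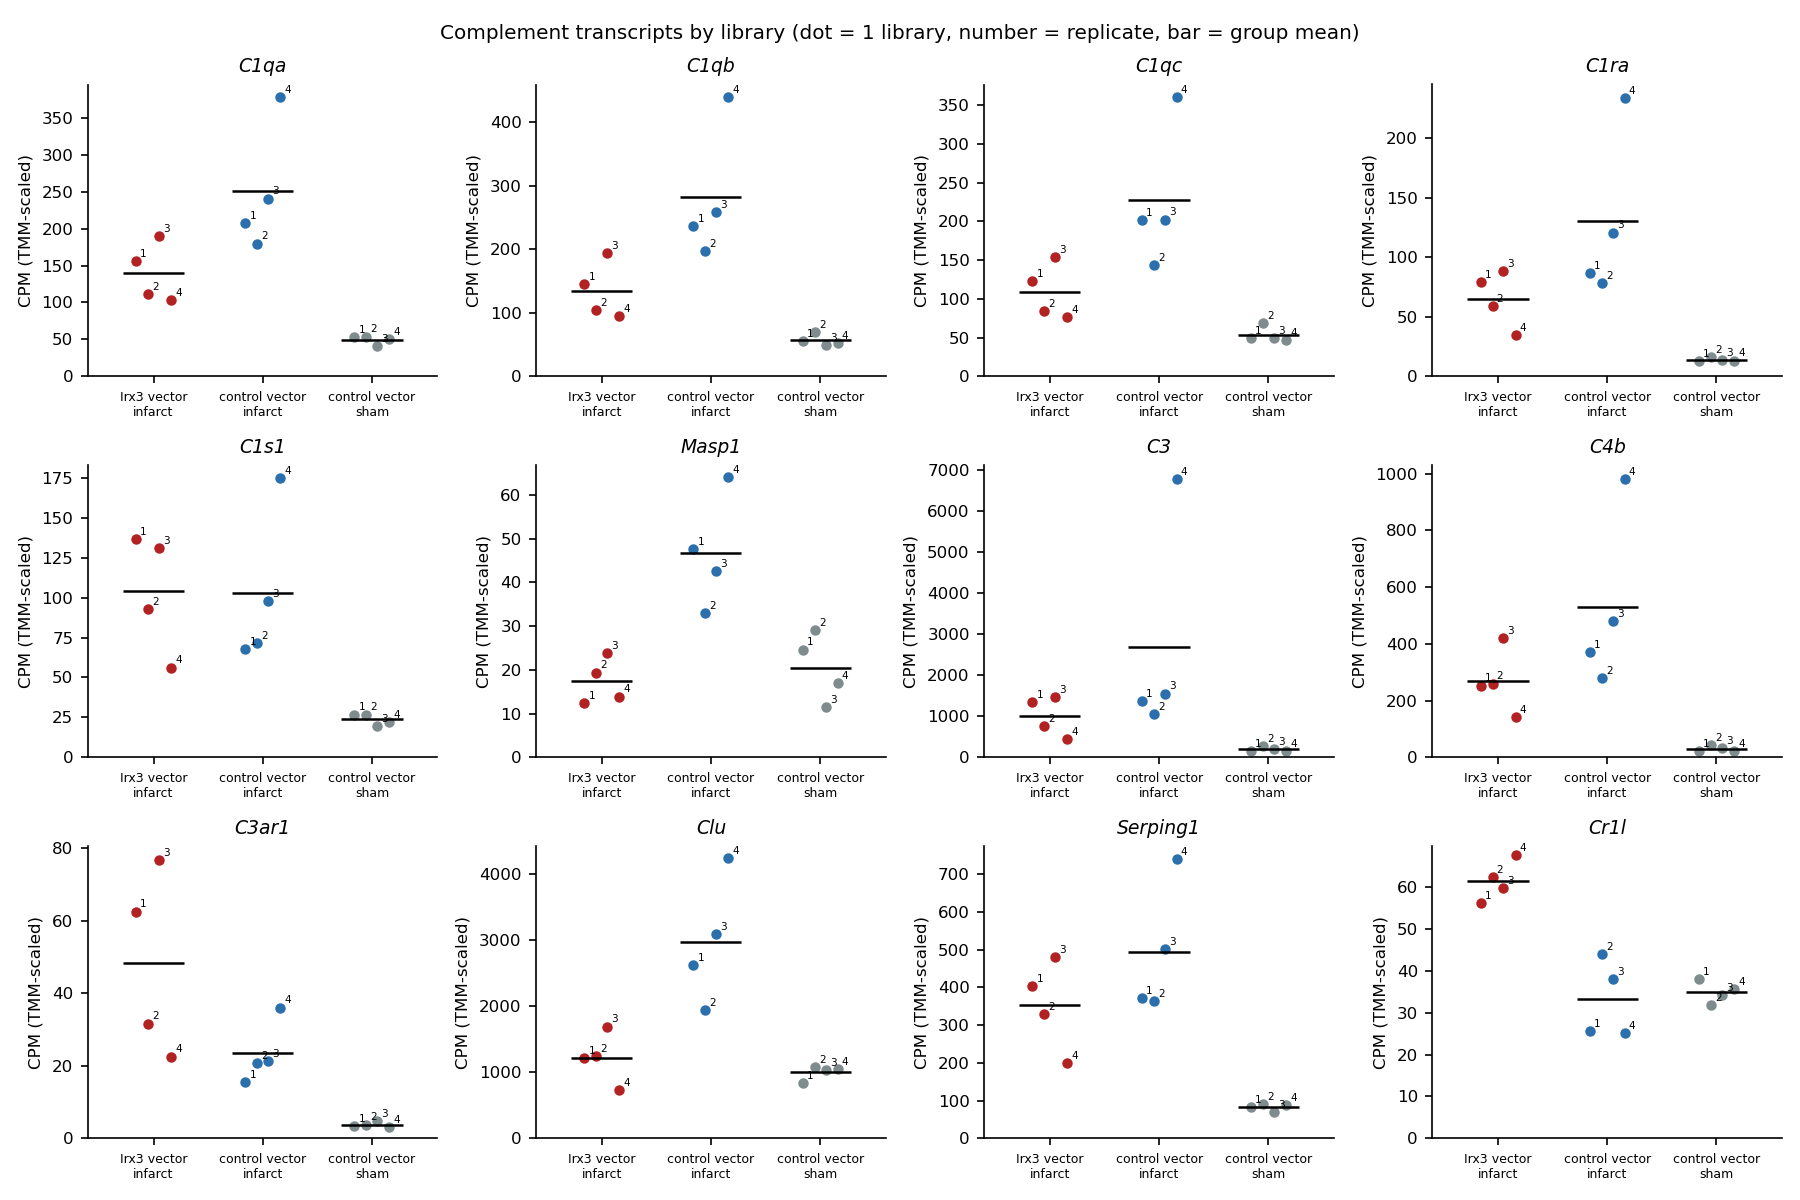
CPM with TMM scaling (y axis from 0) for 12 complement genes in each of the 12 libraries; dots are libraries with their replicate number and bars are group means. Control MI replicate 4 is the highest dot of its group in every panel but Cr1l, and every sham dot of C1qa, C3 and C4b lies below every infarct dot.

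C4b and C3 carried the largest rises among the well-covered genes. C3, the component on which all 3 pathways meet, had 1365, 1049.9, 1551 and 6767 CPM in control MI hearts, against 152, 276, 198 and 159.8 CPM in sham hearts. Replicate 4 stood far above the other infarcted hearts, and all 4 lay above the sham hearts. The log2 change was 3.77 ± 0.61 (edgeR adjusted p = 0.000321), and it was 2.69 without control MI replicate 4. C4b, whose product joins C2 in the classical C3 convertase, had 372, 280.3, 480.5 and 981 CPM in control MI hearts, against 20.6, 43.2, 33.9 and 23.4 CPM in sham hearts, a change of 4.12 ± 0.45 (edgeR adjusted p = 3.11e-05). The groups were far apart, with replicate 4 again the highest. C4a, a near-identical gene, had at most 1.18 CPM in any library and was not called; reads of the pair may be split between them, so their separate levels are uncertain.

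The remaining convertase genes were low. C2, the protease part of the classical convertase, had 2.57, 2.38, 2.56 and 6.72 CPM in control MI hearts, against 0.211, 0.691, 1.09 and 0.0695 CPM in sham hearts, a change of 2.76 ± 0.58 (edgeR adjusted p = 0.00168; 3.39 without sham replicate 3). Cfb, its counterpart in the alternative pathway, had 0.669, 0.915, 0.797 and 3.56 CPM in control MI hearts, against 2 counts in all over the sham hearts. The ratio was 45.2, with a 95% counting interval of 12.2 to 378, which covers counting error only. Without control MI replicate 4 the fitted log2 change was 4.22, against 5.19 with all libraries. The exons of C2 and Cfb overlap those of Gm20547 on the same strand, so reads could be counted to that gene. Cfp, which encodes properdin, the stabiliser of the alternative convertase, had 13.3, 12.1, 12.8 and 50.0 CPM in control MI hearts, against 7.37, 9.86, 7.78 and 10.5 CPM in sham hearts. Its change of 1.31 ± 0.40 (edgeR adjusted p = 0.0153) fell to 0.46 without control MI replicate 4 (edgeR adjusted p = 0.0385).

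Cfd encodes factor D, the protease that cuts factor B and a known product of fat cells. It had 0.206, 10.1, 0 and 26.8 CPM in control MI hearts, against 0.211, 0.314, 0 and 0 CPM in sham hearts. Replicates 2 and 4 were high while 1 and 3 stood within the sham range. The change of 6.03 ± 1.75 (edgeR adjusted p = 0.0118) was not called without control MI replicate 4 (4.53, edgeR adjusted p = 0.0712). In Irx3 MI hearts Cfd had 8.79, 0.958, 1.63 and 0.608 CPM. The summed CPM of Adipoq, Plin1, Cidec and Retn, 4 of the 8 fat cell markers listed, was 4.89, 0.862, 1.09 and 0.380 in Irx3 MI hearts. It was 0.0514, 6.16, 0 and 9.66 in control MI hearts and 0 to 0.314 in sham hearts. The whole list of 8 fat cell markers, which also holds Fabp4, Pparg, Cidea and Lep, summed to 185 to 326 CPM in Irx3 MI, 241 to 541 CPM in control MI and 421 to 466 CPM in sham hearts, where Adipoq and Lep were at 0. Control MI replicate 4, the highest for Cfd, held the lowest of these sums in its group, and replicate 2 the highest. Fabp4, Pparg and Cidea, the 3 tested, were not called in control MI against sham hearts. In Irx3 MI against sham hearts all 3 were lower, and with a GC offset, described further on, 1 of them was. The part of fat tissue in the Cfd values was not tested.

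**Figure D3:**
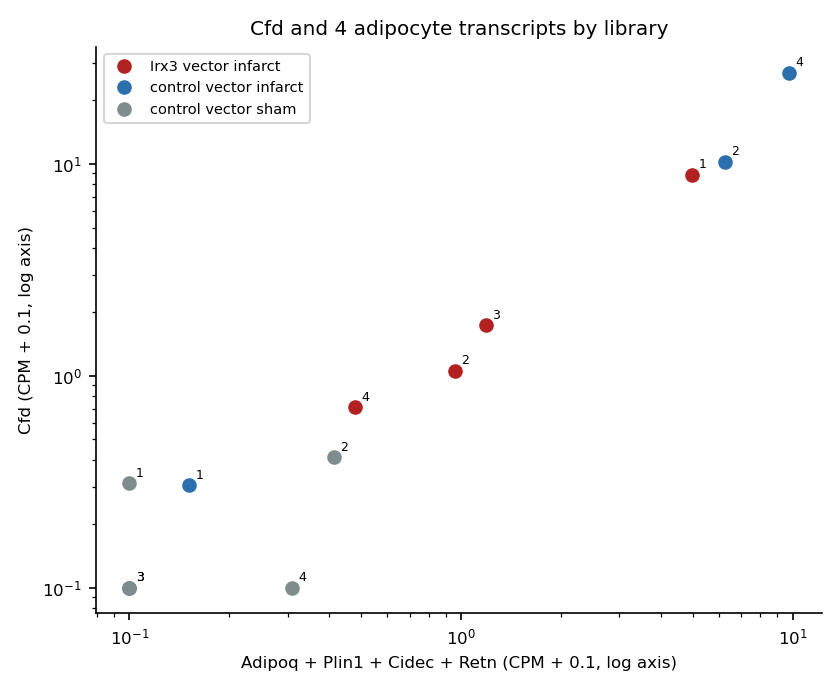
Cfd (y axis) against the summed level of Adipoq, Plin1, Cidec and Retn (x axis), both as CPM with 0.1 added on log axes, in 12 libraries; numbers are replicates, and control MI replicate 3 and sham replicate 3 share the point at 0 on both axes. Control MI replicates 4 and 2 and Irx3 MI replicate 1 are high on both axes. Fabp4, Pparg, Cidea and Lep of the same marker list are not plotted.

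The terminal pathway split. C6, which joins the membrane attack complex after C5b, had 29 counts over the control MI hearts against 3 over the sham hearts, all 3 in replicate 2. The ratio was 7.87, with a 95% counting interval of 2.44 to 40.3, and the call (edgeR adjusted p = 0.0244) was lost in 4 of 12 fits that left out 1 library. These were control MI replicate 2 and sham replicates 1, 3 and 4 (edgeR adjusted p = 0.0619 to 0.0783). Without sham replicate 2 no sham library held a count of C6. C7, the next to join, had 22.3, 20.4, 44.7 and 32.0 CPM in control MI hearts, against 14.7, 28.9, 12.6 and 12.4 CPM in sham hearts, with overlap. Its change of 0.80 ± 0.29 (edgeR adjusted p = 0.0376) was lost in 8 of 12 such fits, with 0.48 as the lowest value, without control MI replicate 3. C8g, the gamma chain of C8, was lower, with 3.19, 4.33, 2.62 and 3.20 CPM in control MI hearts, against 4.21, 6.22, 6.96 and 7.72 CPM in sham hearts, a change of -0.91 ± 0.23 (edgeR adjusted p = 0.00495). The groups overlapped only through control MI replicate 2 and sham replicate 1. Hc, which encodes mouse C5, did not pass the filter. It had 3, 0, 5 and 5 counts in the control MI hearts, 13 in all, against 0 over the sham hearts. With the sham group set to 3 counts in total the ratio was 3.53. This limit covers counting error of the sham group only. C9 had 0 counts in all 12 libraries, which by the same limit allows up to 3 counts per group.

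Each receptor tested rose. C3ar1, the receptor for the fragment C3a, had 15.6, 20.9, 21.3 and 36.1 CPM in control MI hearts, against 3.37, 3.77, 4.85 and 3.13 CPM in sham hearts, a change of 2.63 ± 0.38 (edgeR adjusted p = 0.000177). C5ar1, the receptor for C5a on myeloid cells, had 29.3, 25.8, 30.9 and 66.4 CPM, against 8.28, 15.0, 9.97 and 9.32 CPM in sham hearts, a change of 1.84 ± 0.32 (edgeR adjusted p = 0.00056). Infarcted and sham hearts did not overlap for these receptors. C5ar2, another C5a receptor, had 4.63, 2.87, 4.50 and 7.03 CPM in control MI hearts, against 1.88 to 2.57 CPM in sham hearts (1.10 ± 0.31, edgeR adjusted p = 0.0104). Cr2, the receptor for C3 fragments on B cells, had 7 counts over the control MI hearts against 1 over the sham hearts and was not tested.

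Among the 9 regulators Serping1, Clu, Cfi and Cd55 rose and Cd59a fell. Serping1, the C1 inhibitor, had 373, 364, 502 and 740.2 CPM in control MI hearts, against 81.9, 89.8, 68.9 and 87.9 CPM in sham hearts, a change of 2.59 ± 0.29 (edgeR adjusted p = 3.51e-05). Clu, which encodes clusterin, an inhibitor of the terminal complex, had 2626, 1936, 3091 and 4238 CPM, against 833, 1072, 1032 and 1053 CPM in sham hearts, a change of 1.58 ± 0.28 (edgeR adjusted p = 0.000639). Cfi, the protease that inactivates C3b and C4b, had 0.823, 0.732, 1.54 and 3.36 CPM, against 0.0628 to 0.278 CPM in sham hearts (3.35 ± 0.88, edgeR adjusted p = 0.0071; 2.64 without control MI replicate 4). For these 3 genes every infarcted heart stood above every sham heart. Of the membrane inhibitors, Cd55, which speeds the decay of convertases, had 9.16, 15.4, 16.7 and 15.2 CPM in control MI hearts, against 6.25, 3.58, 3.14 and 4.59 CPM in sham hearts (1.68 ± 0.27, edgeR adjusted p = 0.00033). Cd59a, which blocks the membrane attack complex, was lower, with 29.1, 38.5, 32.8 and 21.2 CPM in control MI hearts, against 61.9, 46.8, 48.5 and 56.3 CPM in sham hearts and no overlap (-0.81 ± 0.23, edgeR adjusted p = 0.00977). The related gene Cd59b stayed at 0.926 to 1.76 CPM in control MI and 1.05 to 2.16 CPM in sham hearts. Cr1l, known in mouse as Crry and a general inhibitor of C3 activation, had 25.2 to 44.0 CPM in control MI and 31.8 to 38.0 CPM in sham hearts, and Vtn (vitronectin) had 15.2 to 27.6 CPM and 21.4 to 25.6 CPM in the same order of groups; neither was called.

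Of the lectin start only Masp1 and Fcna were tested. Masp1, a protease of the lectin pathway, had 47.6, 33.0, 42.5 and 64.1 CPM in control MI hearts, against 24.6, 29.0, 11.5 and 16.9 CPM in sham hearts, with no overlap (1.19 ± 0.29, edgeR adjusted p = 0.00455). Fcna (ficolin A, a recognition protein of macrophages) ran from 1.34 to 3.60 CPM in control MI and from 0.683 to 2.83 CPM in sham hearts and was not called. Masp2, the protease known to cut C4 and C2, had 12 counts over the control MI hearts and 32 over the sham hearts and was left out by the filter. Its exons overlap Tardbp on the opposite strand, and since the strand setting of the counting is not given, reads of the pair cannot be told apart. Mbl2, a mannose-binding lectin made in liver, had 1 count in all 12 libraries, in sham replicate 4.

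The second comparison set the Irx3 vector against the control vector in infarcted hearts. Of the 30 genes tested, 6 were higher with the Irx3 vector, 9 were lower and 15 were not called. Over all genes tested 25.2% were called higher and 24.1% lower, so the share called higher (6 of 30) was not above the background and that called lower (9 of 30) was a little above it. The median log2 fold change was -0.50, against 0.0015 over all genes. The genes called lower were C1qa, C1qb, C1qc, C1ra, Masp1, C3, C5ar1, C7 and Clu, and those called higher were C3ar1, C6, Cd46, Cd55, Cd59a and Cr1l. Of these, C6 passed the filter on low counts only with the Irx3 MI libraries, where it was high. This comparison shares the control MI libraries with the one against sham hearts, so the 2 sets of values are not independent.

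Fold changes in this comparison followed the GC content of the transcript. Across the 30 genes Spearman's rho between log2 fold change and GC content was -0.64, and across 15182 genes it was -0.66, given as a description, since genes of the same libraries are not independent. The 5 genes at the low end of GC content among those tested (Cd46, Cd55, C3ar1, Cr1l and Cd59a, 39.1% to 44.6%) were all called higher, while C1qa, C1qb and C1qc lay at 57.4% to 59.5%. With a per-library offset for GC content in the edgeR fit, Masp1 and C7 were the genes called lower and 0 of 30 were called higher, with 2 higher at an unadjusted p under 0.05; no other tool was run with the offset. Over all genes 13.1% were then called higher and 12.1% lower, and rho over all genes was -0.01. Without both infarct replicates 4, 6 of 30 were higher and 5 lower, against 23.3% and 22.4% of all genes. Whether the relation to GC content arose in the libraries or in the hearts was not tested.

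**Figure D4:**
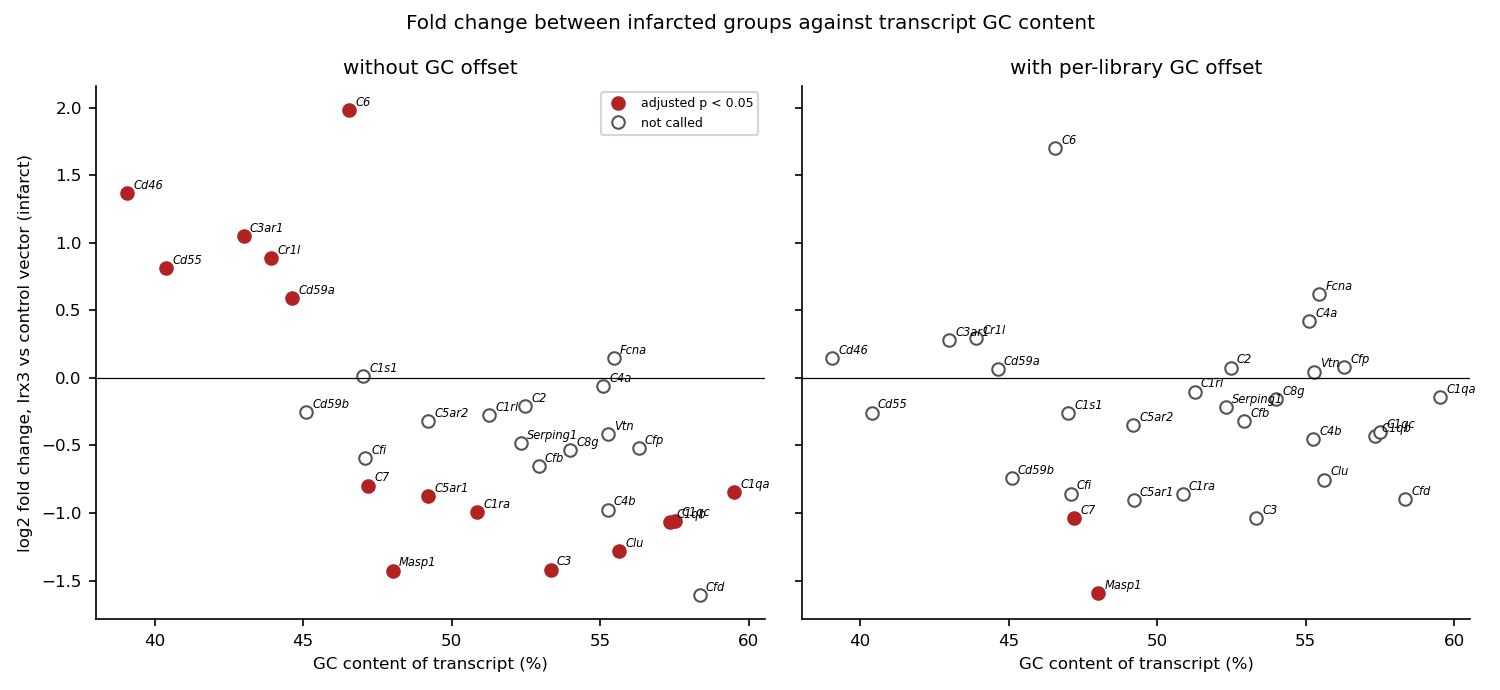
Log2 fold change of Irx3 MI over control MI (y axis) against GC content of the longest transcript in percent (x axis) for the 30 genes tested, without (left) and with (right) a per-library GC offset; filled points passed an adjusted p under 0.05. On the left the 5 genes of lowest GC content (39.1% to 44.6%) stand above 0 and the C1q genes (57.4% to 59.5%) below it, and on the right Masp1 and C7 are the filled points.

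Masp1 was lower with the Irx3 vector in each fit that was run. It had 12.4, 19.4, 23.9 and 13.9 CPM in Irx3 MI hearts, against 47.6, 33.0, 42.5 and 64.1 CPM in control MI hearts, with no overlap. Its log2 change was -1.43 ± 0.29 (edgeR adjusted p = 0.00151) and was -1.59 ± 0.31 with the GC offset (edgeR adjusted p = 0.00325). Without both infarct replicates 4 it was -1.15 ± 0.32 (edgeR adjusted p = 0.0128), and with the GC offset added -1.27 ± 0.34 (edgeR adjusted p = 0.0235). The Irx3 MI values lay within the range of sham hearts, 11.5 to 29.0 CPM, and that comparison was not called (-0.24 ± 0.29, edgeR adjusted p = 0.494).

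C7 was the other gene called lower both without and with the GC offset, though not in each fit that was run. It had 17.2, 17.7, 19.8 and 14.0 CPM in Irx3 MI hearts, against 22.3, 20.4, 44.7 and 32.0 CPM in control MI hearts. The groups did not overlap, though by little, since control MI replicates 1 and 2 stood just above the Irx3 MI hearts. The change was -0.80 ± 0.29 (edgeR adjusted p = 0.0369) and -1.03 ± 0.31 with the offset (edgeR adjusted p = 0.0276). The call was lost in 5 of 12 fits without 1 library, namely without control MI replicate 3 or 4 or Irx3 MI replicate 1, 2 or 4, with -0.53 without control MI replicate 3. It was also lost with no filter on low counts, with a replicate block and in glmTreat (edgeR adjusted p = 0.0703, 0.0593 and 0.281). Without both infarct replicates 4 the change was -0.68 ± 0.36, and -0.87 ± 0.38 with the offset added. Neither was called (edgeR adjusted p = 0.146 and 0.126).

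The C1q genes were lower as a group of 3. C1qb had 146, 105, 194 and 94.6 CPM in Irx3 MI hearts, against 236, 197, 258 and 439 CPM in control MI hearts, a change of -1.07 ± 0.26 (edgeR adjusted p = 0.00484). C1qc had 122, 84.4, 154 and 75.9 CPM, against 202, 144, 202 and 361 CPM, a change of -1.06 ± 0.28 (edgeR adjusted p = 0.00709). C1qa had 156, 112, 189.5 and 103 CPM, against 207, 179.8, 241 and 378 CPM, a change of -0.84 ± 0.24 (edgeR adjusted p = 0.0104). The groups were just apart for C1qb and overlapped for C1qa and C1qc through Irx3 MI replicate 3 and control MI replicate 2. The 3 calls held without any single library. They ended in glmTreat against a fold of 1.5 (edgeR adjusted p = 0.0645, 0.0801 and 0.176 for C1qb, C1qc and C1qa), and the C1qa call ended without both infarct replicates 4 (-0.46 ± 0.18, edgeR adjusted p = 0.0524). They also ended with the GC offset, at -0.43 ± 0.25, -0.40 ± 0.26 and -0.14 ± 0.23 for C1qb, C1qc and C1qa (edgeR adjusted p = 0.227, 0.27 and 0.687). Without both infarct replicates 4 and with the offset C1qa stood at 0.15, above 0.

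C1ra and C1s1, partners in 1 protease complex, parted between the infarcted groups in the fit without the GC offset. C1ra had 79.0, 58.8, 88.6 and 34.3 CPM in Irx3 MI hearts, against 87.0, 78.3, 121 and 234 CPM in control MI hearts, a change of -0.99 ± 0.33 (edgeR adjusted p = 0.0242) that was lost without control MI replicate 4 (-0.54), Irx3 MI replicate 2 (-0.93) or Irx3 MI replicate 4 (-0.79). C1s1 had 136, 92.7, 131 and 56.2 CPM, against 67.6, 71.5, 98.0 and 175 CPM, and was not called (0.016 ± 0.31, edgeR adjusted p = 0.971). Without both infarct replicates 4 C1s1 was called higher (0.60 ± 0.18, edgeR adjusted p = 0.0159), and not with the GC offset added (0.39 ± 0.18, edgeR adjusted p = 0.138). In the same fits C1ra was not called, at -0.34 ± 0.18 and -0.18 ± 0.18 (edgeR adjusted p = 0.132 and 0.494). With all libraries and the offset neither gene was called. C1ra then stood at -0.86 ± 0.35 and C1s1 at -0.26 ± 0.34 (edgeR adjusted p = 0.0879 and 0.604). The ratio of C1ra to C1s1 per kilobase, taken within each library, was 0.617 ± 0.0405 in Irx3 MI, 1.22 ± 0.103 in control MI and 0.584 ± 0.0881 in sham hearts (SD, n = 4 libraries each). The infarcted groups did not overlap, at 0.572 to 0.668 in Irx3 MI and 1.08 to 1.32 in control MI hearts. The ratio has no correction for GC content, was formed after the values were seen and carries no test. C1ra has 50.9% GC and C1s1 47.0%, and C1s1 shares exon bases with the antisense gene Gm16567. Reads of C1rb and C1s2, near-identical copies, may also be split from these genes.

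**Figure D5:**
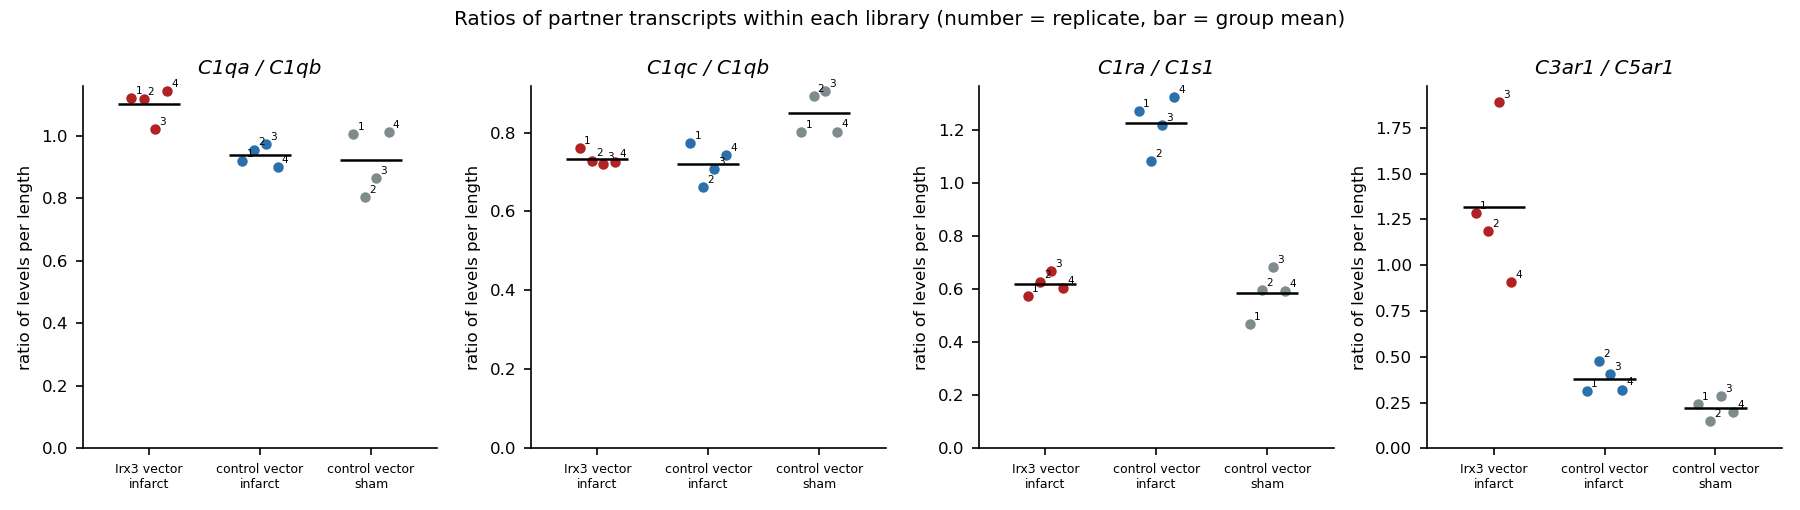
Ratios of transcript levels per kilobase within each library (y axis from 0) for 4 pairs of complement genes; dots are libraries with their replicate number and bars are group means. The C1ra to C1s1 ratio lies between 1.08 and 1.32 in control MI hearts and below 0.681 in both other groups, while the C3ar1 to C5ar1 ratio is highest in Irx3 MI hearts.

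The receptors for C3a and C5a also parted. C3ar1 had 62.6, 31.7, 76.9 and 22.6 CPM in Irx3 MI hearts, against 15.6, 20.9, 21.3 and 36.1 CPM in control MI hearts, a change of 1.05 ± 0.35 (edgeR adjusted p = 0.0226) with overlap through both replicates 4. C5ar1 had 28.8, 15.8, 24.0 and 14.7 CPM, against 29.3, 25.8, 30.9 and 66.4 CPM, a change of -0.87 ± 0.31 (edgeR adjusted p = 0.0327), also with overlap. Per kilobase the ratio of C3ar1 to C5ar1 was 1.32 ± 0.415 in Irx3 MI, 0.379 ± 0.0776 in control MI and 0.218 ± 0.0592 in sham hearts (SD, n = 4 libraries each), with every Irx3 MI heart (0.908 to 1.89) above every control MI heart (0.314 to 0.477). This ratio sets a gene called higher over a gene called lower in the same libraries, so it adds no separate evidence. It has no correction for GC content and carries no test. C3ar1 has 43.0% GC and C5ar1 49.2%, and with the GC offset their changes were 0.28 ± 0.37 and -0.90 ± 0.34 (edgeR adjusted p = 0.617 and 0.0658). The C3ar1 call was lost in 5 of 12 fits without 1 library: control MI replicates 1, 2 and 3 and Irx3 MI replicates 1 and 3, at 0.75 to 1.01. Without both infarct replicates 4 it was 1.56 ± 0.27 (edgeR adjusted p = 0.000828), and 0.91 ± 0.26 with the offset added (edgeR adjusted p = 0.0302). The C5ar1 call was lost without control MI replicate 4 (-0.45) and without Irx3 MI replicate 2, 3 or 4 (-0.93 to -0.74).

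C3 and Clu, the most abundant complement transcripts of control MI hearts, were both lower with the Irx3 vector. C3 had 1336, 757, 1469 and 451 CPM in Irx3 MI hearts, against 1365, 1049.9, 1551 and 6767 CPM in control MI hearts, with wide overlap. Its change of -1.42 ± 0.55 (edgeR adjusted p = 0.0475) was lost in 9 of 12 fits without 1 library and was not called by DESeq2. It stood at -0.39 without control MI replicate 4 (edgeR adjusted p = 0.386), the 4 Irx3 MI libraries and the 4 sham libraries gave -1.65 to -1.18 (edgeR adjusted p = 0.0505 to 0.115), and with the GC offset it was -1.03 ± 0.55 (edgeR adjusted p = 0.185). Clu had 1212, 1249.8, 1689 and 729.7 CPM in Irx3 MI hearts, against 2626, 1936, 3091 and 4238 CPM in control MI hearts, with no overlap. Its change of -1.28 ± 0.28 (edgeR adjusted p = 0.00227) held without any single library and was -0.75 ± 0.26 with the GC offset (edgeR adjusted p = 0.0511). C4b (-0.97 ± 0.39, edgeR adjusted p = 0.0554) and Serping1 (-0.48 ± 0.27, edgeR adjusted p = 0.152) were not called. C4b was called lower with RLE factors in edgeR (adjusted p = 0.0487), by DESeq2 (adjusted p = 0.0211), and in edgeR without control MI replicate 2 or Irx3 MI replicate 3 (adjusted p = 0.0238 and 0.0267). C4b had 253, 259.8, 421 and 141 CPM in Irx3 MI hearts, and Serping1 had 405, 330.0, 481 and 199 CPM.

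The genes called higher were 4 membrane inhibitors, C6 and C3ar1. Cr1l had 56.2, 62.4, 59.8 and 67.6 CPM in Irx3 MI hearts, against 25.7, 44.0, 38.0 and 25.2 CPM in control MI hearts, with no overlap. Its change was 0.89 ± 0.17 (edgeR adjusted p = 0.000877), and 0.29 ± 0.11 with the GC offset (edgeR adjusted p = 0.0725). Cd46, a cofactor for the cleavage of C3b that in mouse is known mainly from testis, had 3.26, 2.83, 3.10 and 2.13 CPM, against 0.875, 1.65, 0.854 and 1.03 CPM, again with no overlap. Its change of 1.37 ± 0.30 (edgeR adjusted p = 0.00244) was 0.15 ± 0.27 with the offset (edgeR adjusted p = 0.72), and its exons overlap A330023F24Rik on the opposite strand, so without a known strand setting the reads cannot be told apart.

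Cd55 had 31.7, 19.2, 30.4 and 17.8 CPM in Irx3 MI hearts, against 9.16, 15.4, 16.7 and 15.2 CPM in control MI hearts; its change of 0.81 ± 0.26 (edgeR adjusted p = 0.0178) turned to -0.26 ± 0.24 with the GC offset (edgeR adjusted p = 0.455). The groups were just apart, and the call was lost without control MI replicate 1 or Irx3 MI replicate 1 or 3, at 0.66 to 0.71. Cd59a had 28.8, 50.6, 39.9 and 63.7 CPM, against 29.1, 38.5, 32.8 and 21.2 CPM, with overlap. Its change of 0.59 ± 0.23 (edgeR adjusted p = 0.0453) was lost in 9 of 12 fits without 1 library, which were all 4 sham replicates, control MI replicates 1, 3 and 4 and Irx3 MI replicates 2 and 4, the lowest 0.39 without Irx3 MI replicate 4. With the offset it was 0.068 ± 0.19 (edgeR adjusted p = 0.826). C6 had 0.740, 2.01, 2.18 and 1.60 CPM in Irx3 MI hearts, against 0.309, 0.915, 0.285 and 0.155 CPM in control MI hearts, overlapping only through Irx3 MI replicate 1 and control MI replicate 2. Its change of 1.98 ± 0.61 (edgeR adjusted p = 0.0157) was 2.68 without control MI replicate 2 and 1.70 ± 0.59 with the offset (edgeR adjusted p = 0.0515). The place of C6 among the genes tested depended on its level in the Irx3 MI libraries, so its call is not independent of that choice.

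Of the other genes that edgeR did not call between the vectors, C2 had 1.82 to 4.03 CPM in Irx3 MI and 2.38 to 6.72 CPM in control MI hearts, and Cfb had 0.228 to 1.74 CPM and 0.669 to 3.56 CPM. Cfi ran from 0.0760 to 2.37 CPM in Irx3 MI and from 0.732 to 3.36 CPM in control MI hearts. Cfp had 13.6 to 18.2 CPM in Irx3 MI and 12.1 to 50.0 CPM in control MI hearts, where replicate 4 alone exceeded 13.3 CPM. C8g was at 1.96 to 2.57 CPM in Irx3 MI and 2.62 to 4.33 CPM in control MI hearts, groups that did not overlap, and Vtn was at 13.5 to 19.7 CPM and 15.2 to 27.6 CPM. Neither was called by edgeR, while DESeq2 called both lower. Vtn was also called lower by edgeR with RLE factors, without control MI replicate 4 and without both infarct replicates 4 (-0.55 ± 0.15, edgeR adjusted p = 0.0097), and C8g without sham replicate 1. Cr2 had 16 counts over the Irx3 MI hearts and 7 over the control MI hearts, Hc had 12 and 13, and Masp2 had 17 and 12, all too few to test.

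The third comparison set Irx3 MI hearts against sham hearts, which differ in both surgery and vector. Here 19 of 30 genes were higher, 2 were lower and 9 were not called, against 35.2% and 27.7% of all genes tested, and the median log2 change was 1.06 against 0.12 over all genes. The 19 held C2, Cfb, Cfd, Cfi and C6, which passed the filter through infarcted libraries. Changes in this comparison are to be read against that median of all genes; its source was not tested. With the GC offset 19 were higher and 3 lower, against 32.2% and 21.8% of all genes, but the genes were not the same. Cd46 went from 1.09 to 0.0061 and Cr1l from 0.82 to 0.24, and neither was called with the offset. Cfp and Clu were called higher only with it. The genes lower were C8g and Vtn without the offset and C8g, Cd59a and Cd59b with it. Without the offset C3ar1 had the smallest adjusted p, at 3.68 ± 0.39 on the log2 scale (edgeR adjusted p = 8.77e-06), followed by Cd55 (edgeR adjusted p = 1.04e-05). With the offset C3ar1 stood at 2.99 ± 0.42 and Cd55 at 1.54 ± 0.25 (edgeR adjusted p = 0.000129 and 0.000324). The smallest adjusted p was then that of C4b (3.67 ± 0.42, edgeR adjusted p = 3.06e-05). Spearman's rho between fold change and GC content was -0.45 over all genes here and -0.032 over the 30 complement genes. Without the offset C4b stood at 3.15 ± 0.43 (edgeR adjusted p = 4.54e-05), C3 at 2.35 ± 0.57 (edgeR adjusted p = 0.00295), C1qb at 1.24 ± 0.27 (edgeR adjusted p = 0.00128) and Serping1 at 2.11 ± 0.28 (edgeR adjusted p = 3.87e-05). C6 had 118 counts against 3 in sham hearts, a ratio of 32.0 with a 95% counting interval of 10.7 to 158. Clu, at 1220.3 ± 392 CPM in Irx3 MI and 998 ± 111 CPM in sham hearts (SD, n = 4 each), was not called (0.29 ± 0.28, edgeR adjusted p = 0.374) but was called with the GC offset (0.82). C8g was lower at -1.45 ± 0.23 (edgeR adjusted p = 0.000152). Vtn was called lower (-0.44 ± 0.18, edgeR adjusted p = 0.0424), but stood at 0.052 with the offset and lost the call without Irx3 MI replicate 1 or 4 or sham replicate 1, 3 or 4 (-0.46 to -0.40). Calls of Cfd, C5ar2, C5ar1 and Cfi were each lost in 1 to 9 of 12 fits without 1 library; without Irx3 MI replicate 1 Cfd stood at 2.89 (against 4.43 with all libraries) and without Irx3 MI replicate 3 C5ar2 stood at 0.48 (against 0.78).

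Per kilobase of transcript, Clu was the most abundant of the 30 genes in each group, at 674 ± 217 in Irx3 MI, 1642 ± 535 in control MI and 551 ± 61.2 in sham hearts (TMM-scaled CPM per kilobase of the longest annotated transcript; SD, n = 4 each). In sham hearts C1qb (52.3 ± 8.33), C1qa (47.8 ± 5.91), Serping1 (46.4 ± 5.34), C1qc (44.5 ± 8.56) and C3 (38.3 ± 11.0) followed. In control MI hearts C3 (522 ± 532), Serping1 (279.9 ± 99.2), C1qb (259.9 ± 98.9), C1qa (242 ± 84.7) and C1qc (189 ± 77.5) followed. These SDs are over libraries and do not measure the difference between genes within a library. Within libraries the ratio of C1qc to C1qb ran from 0.801 to 0.906 in sham and from 0.661 to 0.773 in control MI hearts. That of C1qa to C1qb ran from 0.805 to 1.01 and from 0.901 to 0.974. In Irx3 MI hearts Serping1 (200.1 ± 68.1) and C3 (195 ± 93.6) came next, then C1qa (135 ± 38.6), C1qb (124 ± 41.6) and C1qc (90.8 ± 30.1). All 35 genes together took 0.212% to 0.597% of counts in Irx3 MI, 0.466% to 1.54% in control MI and 0.133% to 0.166% in sham hearts.

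A list held 24 other complement genes, of which 13 were tested. In control MI against sham hearts 6 were higher and 2 lower, against 26.3% and 22.4% of all genes. Colec12, a scavenger receptor with a collectin domain, rose by 2.03 ± 0.24 (edgeR adjusted p = 5.11e-05), and the subunits of complement receptors 3 and 4, Itgam, Itgax and Itgb2, rose by 2.15 ± 0.40, 3.29 ± 0.59 and 2.29 ± 0.43 (edgeR adjusted p = 0.00086, 0.000653 and 0.000909). With the Irx3 vector against the control vector 2 of 13 were higher and 1 was lower, against 25.2% and 24.1% of all genes. With the GC offset 1 was higher and 2, Thbd and Colec12, were lower, against 13.1% and 12.1% of all genes. Vsig4, the complement receptor of resident macrophages, averaged 1.73 CPM in Irx3 MI and 0.420 CPM in control MI hearts (2.04 ± 0.43, edgeR adjusted p = 0.00177; 1.51 with the GC offset). Cd93, a receptor of endothelial and myeloid cells, was higher (0.57 ± 0.12, edgeR adjusted p = 0.00228; 0.34 and not called with the offset). Thbd, which encodes thrombomodulin, was lower (-0.75 ± 0.13, edgeR adjusted p = 0.000461; -0.58 with the offset). In Irx3 MI against sham hearts 7 were higher and 1, Thbd, was lower, against 35.2% and 27.7% of all genes.

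Of 15 factors and cytokines known to act on complement genes, 13 were tested. In control MI against sham hearts 10 were higher and 3 were not called, against 26.3% of all genes higher and 22.4% lower. With the GC offset 11 were higher and 1, Cebpb, was lower, against 30% and 23.1%. The 10 held the myeloid factors Irf8 (2.01 ± 0.27, edgeR adjusted p = 0.000107) and Spi1, which encodes PU.1 (2.39 ± 0.42, edgeR adjusted p = 0.000534). Cebpd, a C/EBP factor of the acute phase, had 108, 69.9, 110.2 and 205 CPM in control MI hearts, against 30.2, 42.6, 41.1 and 30.7 CPM in sham hearts (1.77 ± 0.32, edgeR adjusted p = 0.000652). In Irx3 MI hearts Cebpd had 23.9, 25.8, 28.2 and 11.2 CPM, below every heart of both other groups. Its change against control MI hearts was -2.46 ± 0.33 (edgeR adjusted p = 9.96e-05) and -2.26 ± 0.33 with the GC offset (edgeR adjusted p = 0.000647). Nfkb1 (-0.64 ± 0.17), Rela (-0.44 ± 0.13) and Stat3 (-0.47 ± 0.16) were also called lower with the Irx3 vector (edgeR adjusted p = 0.0066, 0.0117 and 0.0252), and none of these 3 was called with the offset, where Rela turned to 0.23. Between the vectors 0 of the 13 were higher and 4 lower, against 25.2% and 24.1% of all genes. In Irx3 MI against sham hearts 7 of the 13 were higher and 1, Cebpb, was lower, against 35.2% and 27.7% of all genes.

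Markers of cells that can make complement, and of other cells, were counted in the same comparisons. Over all genes 26.3% were called higher and 22.4% lower in control MI than in sham hearts, and 25.2% and 24.1% between the vectors. Of 12 macrophage markers 9 were higher and 2 lower in control MI than in sham hearts, and their summed level was 731 to 1377 CPM in Irx3 MI, 873 to 2036 CPM in control MI and 389 to 462 CPM in sham hearts. Between the vectors Timd4, Ccr2 and Cx3cr1 were higher and Mertk, Csf1r and Cd163 lower with Irx3, and with the GC offset Ccr2 and Csf1r were no longer called. The median log2 fold change of the 12 between the vectors was 0.070, and -0.23 with the offset. All 10 fibroblast markers were higher in control MI than in sham hearts and 4 were lower with the Irx3 vector (Pi16, Tcf21, Gsn and Dpt). With the GC offset 5 of the 10 were lower between the vectors (these and Dcn), against 12.1% of all genes. The fibroblast sums were 3963 to 18282 CPM in Irx3 MI, 10984 to 32004 CPM in control MI and 2180.0 to 2639 CPM in sham hearts. Neutrophil markers (2 of 5 tested higher in control MI than in sham) summed to 7.37 to 45.0 CPM in Irx3 MI, 8.48 to 122 CPM in control MI and 3.09 to 8.16 CPM in sham hearts. Mesothelial markers (5 of 6 higher) summed to 17.9 to 42.6 CPM, 12.4 to 74.4 CPM and 7.23 to 15.7 CPM in the same order, and T and NK cell markers (8 of 8 higher) to 17.0 to 27.8 CPM, 10.1 to 25.8 CPM and 2.25 to 3.08 CPM. B and plasma cell markers (4 of 6 tested higher and 1 lower) summed to 43.8 to 65.8 CPM, 19.2 to 159 CPM and 4.58 to 6.88 CPM. Endothelial markers (3 of 8 lower) summed to 1034 to 1218 CPM, 1071 to 1455 CPM and 1579.8 to 1766 CPM. Between the vectors 2 of the 8 were higher and 5 lower with Irx3, and 1 and 2 with the GC offset. No neutrophil, B cell or plasma cell marker was called between the vectors without the offset, and with it Mzb1 was called higher. Smooth muscle and pericyte markers (1 of 8 higher and 3 lower) summed to 1279 to 1397 CPM, 1031 to 1306 CPM and 1258 to 1442 CPM. The 8 hepatocyte markers summed to 0.760 to 3.02 CPM in Irx3 MI, 8.66 to 10.2 CPM in control MI and 4.71 to 8.85 CPM in sham hearts. Most of this was Ahsg, which averaged 1.82 CPM in Irx3 MI, 8.09 CPM in control MI and 3.88 CPM in sham hearts. Ahsg, Ttr and Alb, the 3 tested, were lower with the Irx3 vector, without and with the GC offset, and Ahsg was higher in control MI than in sham hearts. Of these lists only the 4 adipocyte transcripts were set against a complement gene library by library, and the part of any cell type in the complement changes was not tested.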

How the data were processed

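The deposited table holds unnormalised counts of reads for each gene in each library. Reads were trimmed with fastp and the genome build is GRCm39 (mm39), per the submitters' processing notes; the aligner, the counting tool, its annotation and whether strand was used are not stated there. RNA was enriched with oligo(dT) beads, per the labels' protocols. Counts were tested with edgeR 4.0.16 (R 4.3.3, quasi-likelihood, robust, TMM factors, filterByExpr by group, 1 term per group, 12 libraries, 9 residual degrees of freedom); 15742 genes passed, and p-values were adjusted by Benjamini-Hochberg over them. Genes were called at an adjusted p under 0.05. The standard error is the size of the log2 fold change over the square root of F. The GC offset is a per-library natural spline (6 degrees of freedom) on GC content of the longest GENCODE M21 transcript (GRCm38), matched by symbol for 96.4% of genes tested and all 35 members; lengths came from the same transcripts. Alternatives were RLE and upper-quartile factors, DESeq2 1.42.0, 2 other filters, only the groups compared, no mitochondrial genes, a replicate block, glmTreat at a fold of 1.5, and libraries left out. Members, lists and alternatives were chosen with earlier results of these data known. Named were all called members and those below the filter, plus up to 4 called genes per list. Replicates are separate mice as far as the labels say, and no pair within a group agreed within sampling noise (chi-square per gene 7.93 to 314 over genes with at least 20 counts). The fit was tested on simulated data. For the factor list 1 gene, and for the promoters 1 motif, are not reported here.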

Additional observations from a re-analysis of the deposited data

Results flagged for a closer look

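In 9 of 90 groups of 4 libraries 1 library stood apart from the other 3 by Dixon's test; chance gives about 1 in 20 groups, or 4.5 of 90. Control MI replicate 4 was high for C2 (6.72 CPM), Cfb (3.56 CPM) and Cfp (50.0 CPM). Control MI replicate 1 was low for Cd55, at 9.16 CPM. Irx3 MI replicate 4 was low for C4a, at 0.0760 CPM. Sham replicate 2 was high for C1qc (68.9 CPM) and was the only sham library with counts of C6 (0.188 CPM). Sham replicate 1 was low for Clu, at 833 CPM, and sham replicate 3 was low for Fcna, at 0.683 CPM.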

How the results depend on the processing

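In control MI against sham hearts the counts of 21 higher and 2 lower moved little, with 19 to 21 higher and 2 lower when single libraries were left out; against a fold of 1.5 (glmTreat in edgeR) 0 were called lower, with 1 lower at an unadjusted p under 0.05 and 2 lower in the fit without that bound. Between the vectors the 6 higher became 0 with the GC offset, 1 with glmTreat, 2 without both infarct replicates 4 and with the offset, and 3 to 5 without single libraries. The 9 lower became 5 with no filter on low counts, 2 with the GC offset, 2 with glmTreat, 5 without both infarct replicates 4, 1 with the offset added, and 5 to 10 without single libraries. In Irx3 MI against sham hearts the 2 lower became 1 with upper-quartile factors, with no filter and with glmTreat, and 1 to 2 without single libraries, where 15 to 20 were higher. Same-numbered samples correlated at -0.42 to 0.10 in their deviations from the group means, so the replicate numbers were not taken to pair the samples. With a replicate block 3 genes were higher and 5 lower between the vectors, and 1 higher and 1 lower with the GC offset added, and 1 was lower in Irx3 MI against sham hearts.

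Of the 15 genes not called between the vectors 13 changed sign in at least 1 alternative, with turned values of up to 0.85 in size, and 1, Cfp, was called in the turned direction. Among the genes given with a fold change, directions turned between the vectors for C1s1 (-0.024 with RLE factors and with DESeq2, -0.26 with the GC offset, -0.22 with the block and offset, -0.14 to 0.41 without single libraries), for Cfp (0.082 with the offset, 0.29 with the block and offset, -0.72 to 0.28 without single libraries, 0.25 without both replicates 4, and 0.76 with the offset added, where it was called higher) and for Cd55 (-0.26 with the offset and -0.28 with the block and offset). Without both replicates 4 Cfd stood at 0.16. With the GC offset added to that, C1qa stood at 0.15, C3 at 0.19, C4b at 0.18, Cfd at 0.62, Serping1 at 0.23 and Cd59a at -0.21. In Irx3 MI against sham hearts Vtn turned to 0.052 with the offset, 0.034 with the block and offset and 0.077 without both replicates 4 and with the offset. The cause was not tested. Genes under about 1 CPM (Cfb, C6, Cfi, C4a) rest on few counts, and 5 of the 35 genes had too few to test.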
